A study of Mus musculus with 6 samples.

Results

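The arrays described here are the induced day 4 array and the induced day 3 array of a time course of differentiating mouse embryonic stem cells (ESCs), 2 of the 6 arrays of the series. They were chosen by their labels alone, as the cultures that had received doxycycline, and no measured value took part in that choice. A gene was read from a probe set that carried its symbol alone. Where several did, the one with the greatest mean intensity across all 6 arrays was taken, and 18193 genes were obtained. The difference between the days is the log2 intensity on day 4 minus that on day 3, after 50 was added to each intensity. The question behind it is which transcripts stand higher or lower a day later in embryoid bodies in which miR-200c and miR-141 are being induced.

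The cells were the A2.miR200c line, A2lox-derived mouse ESCs in which a doxycycline-inducible promoter drives miR-200c and miR-141 from a single locus. They had been kept on irradiated mouse embryonic fibroblast feeders, were passaged once without them, and were then plated in suspension in Petri dishes with fetal calf serum and without leukemia inhibitory factor. The induced day 4 and induced day 3 cultures, and the induced day 5 culture quoted beside them, were assigned 500 ng/mL doxycycline on days 2 and 4, so day 3 had seen only the first addition. Whether the addition on day 4 came before RNA was taken is not stated. Every group was 1 array, so the differences below carry no replicate error, no test was possible, and a verb such as "was higher" compares 2 arrays only. Day of differentiation and time under doxycycline cannot be told apart within these arrays, nor can an effect of doxycycline from that of the microRNAs. In a bulk culture, fewer cells of a type and less RNA per cell cannot be told apart either.

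In the embryo, pluripotent cells of the inner cell mass become an epithelial epiblast, and Wnt, Nodal and bone morphogenetic protein (BMP) signals then set up the primitive streak, where epiblast cells leave the epithelium and become mesoderm or definitive endoderm. Embryoid bodies go through a similar sequence. The miR-200 family is known for holding cells in an epithelial state, chiefly by repressing Zeb1 and Zeb2, the repressors of the E-cadherin gene Cdh1. Its members fall into 2 groups that differ by a single base of the seed, the stretch through which a microRNA pairs with its targets.

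Both induced microRNAs are shown because each carries a different seed of the family, given here in capitals (bases 2 to 8) in the mature sequences from RefSeq (GRCm38.p6).
mmu-miR-200c-3p: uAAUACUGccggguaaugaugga
mmu-miR-141-3p: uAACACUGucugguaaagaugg
Mature miR-200c-3p lies at chr6:124718324-124718346 and miR-141-3p at chr6:124717917-124717938, both on the minus strand, and neither overlaps another gene of the RefSeq table. The seed AAUACUG is also that of miR-200b-3p and miR-429-3p, and the seed AACACUG that of miR-200a-3p. The arrays measure polyadenylated transcripts, so the microRNAs themselves were not read.

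Of the 18193 genes, 119 (0.654%) were at least 2-fold higher on induced day 4 and 82 (0.451%) at least 2-fold lower. Past 4-fold there were 20 higher and 3 lower, and past 8-fold 6 higher and 0 lower. The median difference over all genes was 0.02 and 54.0% of genes lay above 0. A background level of 36.7 was taken from 78 receptor genes of smell and taste that these cells should not use. None of those 78 was past 2-fold (differences between -0.31 and 0.47). Because of the constant added to each intensity, a gene at or below background on both arrays could not reach 2-fold. For such genes that count is therefore no check on noise. Among the 11238 genes whose mean was above background, 118 (1.05%) were higher and 81 (0.721%) lower. Across genes the log2 values of the 2 arrays had r = 0.988, a description in which genes are not independent replicates. Of the 20 largest differences upward, 9 were genes of the primitive streak list. Of the 20 largest downward, 4 were on the naive ES cell or core pluripotency lists (Fgf4, Dppa2, Nr0b1 and Gdf3), and the others were of mixed kinds.

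**Figure D1:**
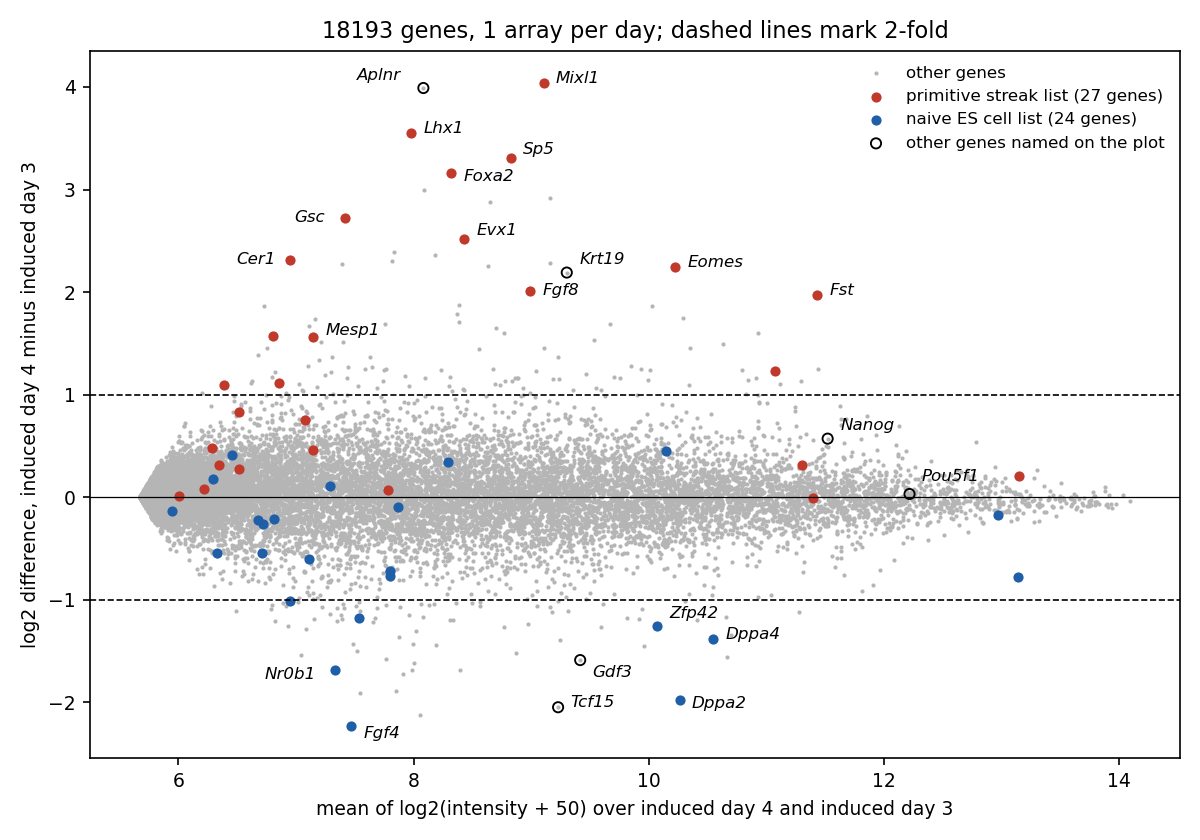
Each point is 1 gene, with its mean log2(intensity + 50) over induced day 4 and induced day 3 on the horizontal axis and the log2 difference, day 4 minus day 3, on the vertical axis. Primitive streak genes (red) reach 4.04 for Mixl1, and naive ES cell genes (blue) reach -2.23 for Fgf4, while 0 streak genes lie below the lower dashed line and 0 naive genes above the upper one.

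The gene lists used below share members, and each is described by how many of its measured genes were past 2-fold in either direction and by its median. Over all genes 0.654% were at least 2-fold higher and 0.451% at least 2-fold lower. A short list with 0 past 2-fold is thus near the share over all genes. The defining genes of the labelled cell type were all far above background on both arrays, but did not share a direction. Pou5f1 read 4751 on day 4 and 4665 on day 3, and Nanog 3523 on day 4 and 2363 on day 3. Sox2 (3470 on day 4, 5335 on day 3) and Zfp42 (645 on day 4, 1609 on day 3) were lower on day 4. The epiblast genes Otx2 (2088 on day 4, 1777 on day 3) and Fgf5 (2833 on day 4, 1236 on day 3) were higher. Hprt, beside which the inducible cassette sits in this kind of line, read 2539 on day 4 and 1671 on day 3 (0.59), and neither value was near background. The 23 housekeeping genes had a median of 0.02, and 0 of them were past 2-fold (-0.31 for Gusb to 0.55 for B2m).

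**Figure D2:**
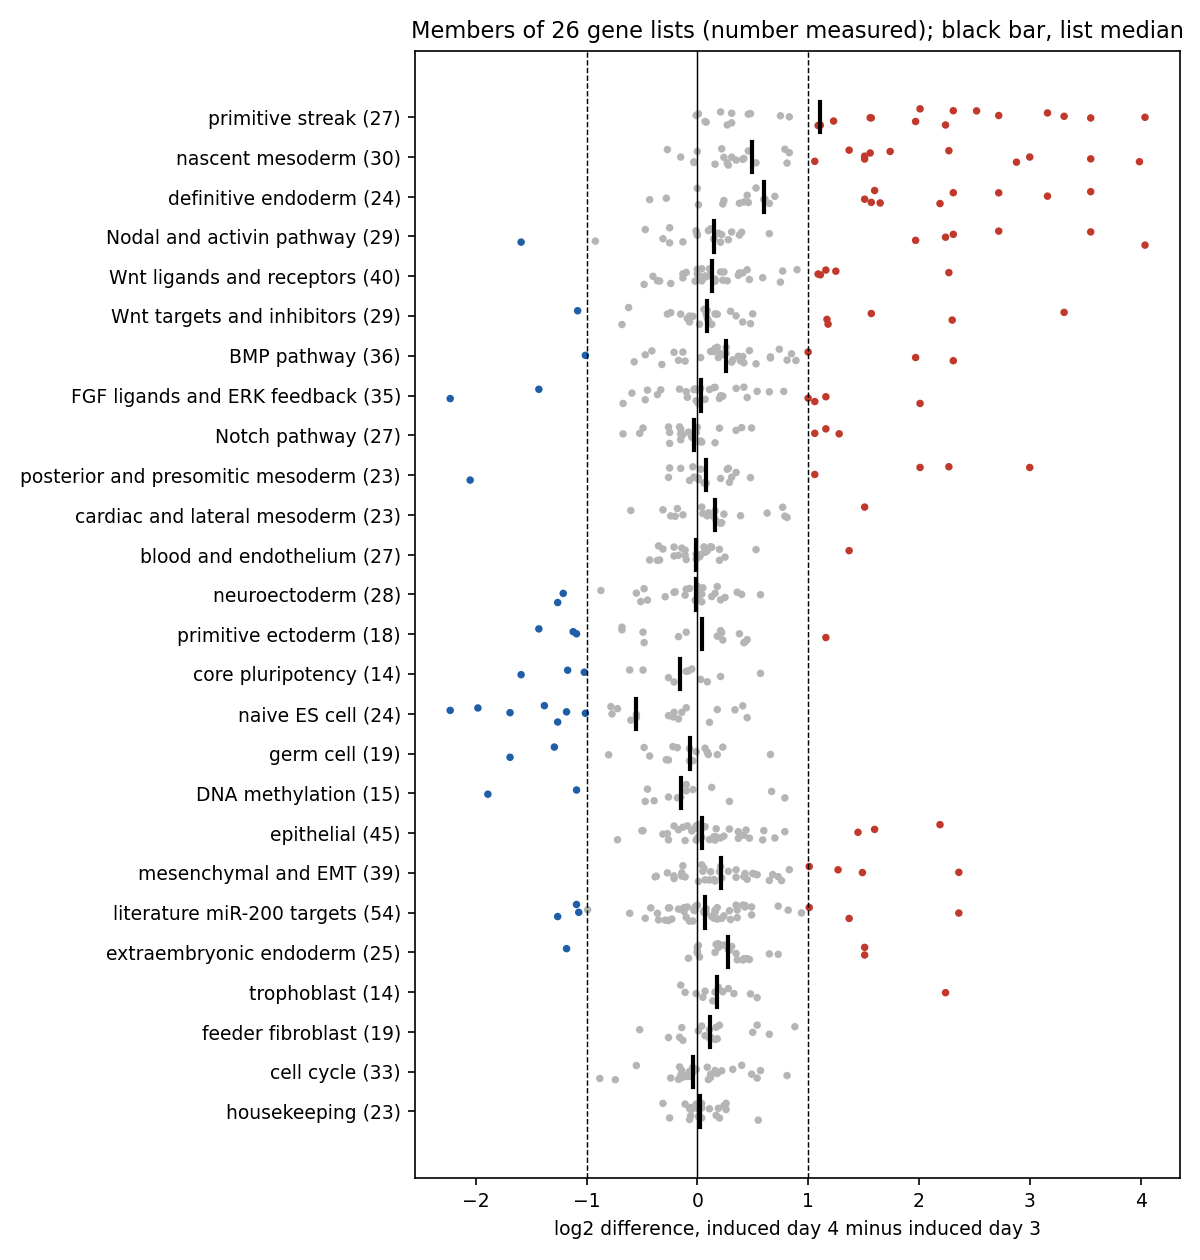
Each point is a gene's log2 difference, induced day 4 minus induced day 3, by gene list, with points at least 2-fold higher in red and at least 2-fold lower in blue. The black bars, list medians, stand at 1.11 for the primitive streak and -0.55 for naive ES cell genes, against 0.02 for housekeeping genes.

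Genes of the primitive streak had the highest median of the lists. Of 27 measured, 15 were at least 2-fold higher and 0 lower, 26 lay above 0, and the median difference was 1.11. The Brachyury gene T was on the list but was not among the measured genes, so it has no value here. On day 4, 25 of them were above background, against 14 on day 3. The homeobox gene Mixl1 (Entrez Gene 27217), needed for mesoderm and endoderm in the mouse, read 2183 on day 4 and 85.6 on day 3, a difference of 4.04. It was the largest of all genes with 50 added, but not with 16 added, where it came to 4.44 against 4.95 for Aplnr. The T-box gene Eomes, which starts mesoderm and endoderm formation, read 2539 on day 4 and 499 on day 3 (2.24). These 2 genes differed in where they began, since Eomes was already well above background on day 3.

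Several homeobox and forkhead genes of the anterior streak and organizer were near or below background on day 3. Lhx1, a LIM homeobox gene required for head organizer function, read 813 on day 4 and 23.7 on day 3, at least 22.2-fold higher when day 3 is set at the background level. Gsc, the goosecoid homeobox gene of the organizer, read 388 on day 4 and 16.3 on day 3, at least 10.6-fold. Foxa2, the forkhead factor of the anterior streak, node and endoderm, read 904 on day 4 and 56.6 on day 3 (3.16). Lhx1, Gsc and Foxa2 were thus clear on day 4 and at or near background on day 3, which need not hold for other genes of this region. Evx1, a homeobox gene of the posterior streak, read 773 on day 4 and 93.5 on day 3 (2.52), so the difference was not limited to anterior genes. Mesp1, the bHLH factor of the earliest mesoderm, read 193 on day 4 and 32.7 on day 3, at least 5.27-fold higher.

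On the induced day 5 array most of these genes were higher still. In the order of days 3, 4 and 5, Mixl1 read 85.6, 2183 and 3373, Eomes 499, 2539 and 3364, and Foxa2 56.6, 904 and 1346. Cer1, a secreted inhibitor of Nodal, BMP and Wnt signals made by anterior endoderm, read 5.48, 226 and 2046, so that most of its signal came after day 4. Fst, which encodes the activin inhibitor follistatin, read 1342, 5409 and 4688, and was highest on day 4.

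**Figure D3:**
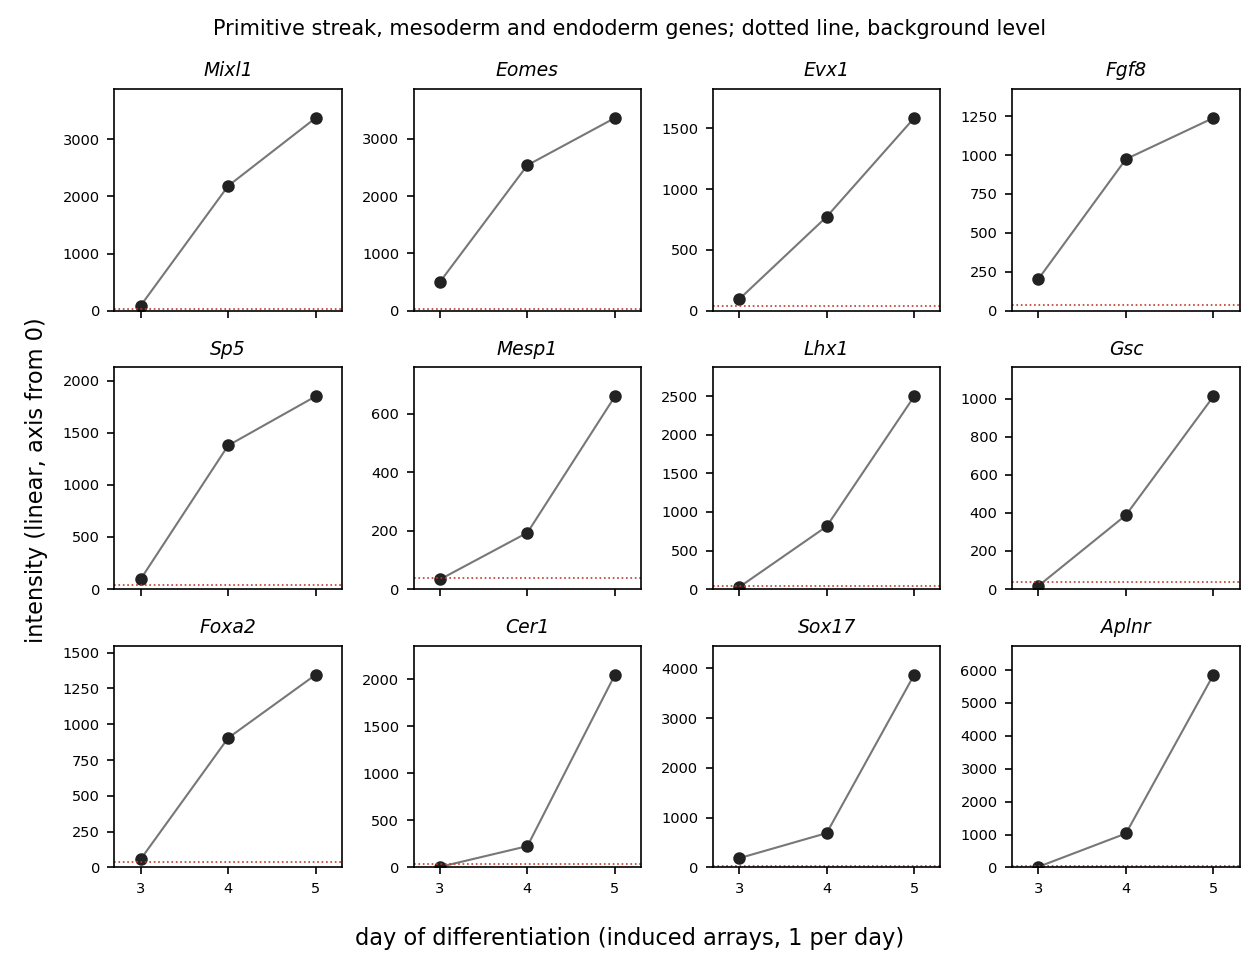
Intensity (linear axis from 0) against day of differentiation for 12 genes of the streak, mesoderm and endoderm on the induced arrays, 1 array per day, with the background level of 36.7 dotted. All 12 are higher on day 4 than on day 3 and higher again on day 5, and for Cer1, Sox17, Aplnr and Mesp1, among others, the larger step is the one after day 4.

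The Nodal and activin pathway was uneven. Of 29 genes measured, 6 were at least 2-fold higher (Mixl1, Lhx1, Gsc, Cer1, Eomes and Fst), 1 was lower, and the median was 0.15. All 6 are targets or inhibitors of the pathway. The ligand gene Nodal itself read 2765 on day 4 and 2217 on day 3 (0.31), and its co-receptor Tdgf1 9740 on day 4 and 8397 on day 3 (0.21). The feedback inhibitors of Nodal, Lefty1 and Lefty2, differed from each other. Lefty1 read 2567 on day 4 and 4903 on day 3 (-0.92), whereas Lefty2 read 2634 on day 4 and 2662 on day 3 (-0.01). Gdf3, a Nodal-related ligand of pluripotent cells, was the lower member, with 343 on day 4 and 1137 on day 3 (-1.59).

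Wnt genes at least 2-fold higher were as many in the list of ligands and receptors as in the shorter list of targets and inhibitors. Of 40 ligands, receptors and secretion factors, 5 were at least 2-fold higher and 0 lower (30 above 0, median 0.14), and of 29 targets and inhibitors 5 were higher and 1 lower (19 above 0, median 0.09). Rspo3, a secreted amplifier of Wnt signals, read 319 on day 4 and 26.6 on day 3, at least 8.70-fold higher. Wnt5a read 72.0 on day 4 and 7.26 on day 3, and Wnt5b 120 on day 4 and 28.9 on day 3, at least 1.96-fold and 3.28-fold. Wls, which escorts Wnt proteins to the cell surface, read 658 on day 4 and 267 on day 3 (1.16), and the Wnt5a receptor gene Ror2 579 on day 4 and 214 on day 3 (1.25). Wnt3, the ligand needed for streak formation in the mouse, read 50.6 on day 4 and was below background on day 3 (33.2), and Wnt3a was below background on both.

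Among the targets, Sp5, a zinc finger gene induced directly by Wnt signals, read 1378 on day 4 and 93.7 on day 3 (3.31). Axin2, the common feedback target, read 317 on day 4 and 112 on day 3 (1.18). Dkk1, the secreted Wnt inhibitor, read 451 on day 4 and 51.8 on day 3 (2.30) and reached 3015 on induced day 5. Sfrp1, another secreted inhibitor, ran the other way, with 91.6 on day 4 and 250 on day 3 (-1.08). A second probe set of Sfrp1 was level, with 149 on day 4 and 142 on day 3. Its other probe sets above background on either array gave -0.74, -0.56 and -0.61. Lef1 (791 on day 4, 691 on day 3) and the beta-catenin gene Ctnnb1 (9685 on day 4, 9563 on day 3) were nearly level.

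The 3 promoters below are shown because these genes were among those at least 2-fold higher and hold the letters CTTTGAT or CTTTGAA, which TCF and LEF factors of the Wnt pathway bind, within 250 bases before their start. Each is the sequence of RefSeq (GRCm38.p6) up to the base before the start, on the gene's strand, with matches on either strand in capitals.
Sp5: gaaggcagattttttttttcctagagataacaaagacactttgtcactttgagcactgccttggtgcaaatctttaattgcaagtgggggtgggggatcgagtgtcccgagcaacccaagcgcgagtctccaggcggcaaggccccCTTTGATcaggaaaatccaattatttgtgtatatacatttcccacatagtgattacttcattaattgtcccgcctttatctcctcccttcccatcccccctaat
Dkk1: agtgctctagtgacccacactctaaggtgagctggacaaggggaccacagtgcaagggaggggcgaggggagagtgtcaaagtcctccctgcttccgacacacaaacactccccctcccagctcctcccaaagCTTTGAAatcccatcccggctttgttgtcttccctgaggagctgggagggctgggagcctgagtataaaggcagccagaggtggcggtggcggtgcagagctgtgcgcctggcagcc
Mesp1: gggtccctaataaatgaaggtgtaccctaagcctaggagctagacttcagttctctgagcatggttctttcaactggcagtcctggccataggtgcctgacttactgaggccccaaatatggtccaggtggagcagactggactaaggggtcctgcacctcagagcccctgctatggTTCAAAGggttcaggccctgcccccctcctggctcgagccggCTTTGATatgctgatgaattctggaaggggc
The Sp5 window is chr2:70474673-70474922 (plus strand), with its match 104 to 98 bases before the start. The Dkk1 window is chr19:30549497-30549746 (minus strand), with its match at 117 to 111 bases. The Mesp1 window is chr7:79793591-79793840 (minus strand), with matches at 73 to 67 and at 31 to 25 bases. In windows of 300 bases, 250 before to 50 after the start, these letters occurred in 12 of 123 promoters (9.76%) of the genes at least 2-fold higher and in 3 of 78 (3.85%) of those lower, against 8.65% of all 32851 promoters. The share among the higher genes was thus close to that of all promoters. For the primitive streak list it was 5 of 23 promoters (21.7%). The other motifs searched gave low counts. AATCCACA or AATACACA, bound by FoxH1 of the Nodal pathway, occurred in 1 of 123 promoters (0.813%) of the higher genes and 1 of 78 (1.28%) of the lower ones, against 1.82% of all. AGGTGTGA, bound by T-box factors, occurred in 3 (2.44%) and 0, against 1.28%, and ATTTGCAT, bound by POU factors such as Oct4, in 3 (2.44%) and 4 (5.13%), against 1.74%. A match is a description of letters and not evidence of binding.

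Early mesoderm genes pointed the same way as the streak list, with which they share members. Of 30 nascent mesoderm genes, 11 were at least 2-fold higher and 0 lower, 25 lay above 0 and the median was 0.49. Aplnr, the apelin receptor of migrating mesoderm, read 1032 on day 4 and 17.9 on day 3, at least 28.1-fold higher, and its ligand gene Apln 1038 on day 4 and 98.3 on day 3 (2.88). Receptor and ligand were therefore both past 2-fold on the same array. Cyp26a1, which degrades retinoic acid in the streak and tail, read 719 on day 4 and 45.9 on day 3 (3.00), and was the only 1 of 23 retinoic acid pathway genes past 2-fold. Pdgfra, a receptor of paraxial mesoderm, read 199 on day 4 and 37.8 on day 3 (1.51), and Kdr, the Flk1 receptor of lateral mesoderm, 205 on day 4 and 48.6 on day 3 (1.37). Both were at least 3-fold brighter again on induced day 5, at 698 and 1763.

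Lists of later mesoderm differed from each other. Of 23 posterior and presomitic genes, 4 were at least 2-fold higher (Cyp26a1, Rspo3, Fgf8 and Dll3) and 1 lower, with a median of 0.08, and 10 were above background on day 4 against 7 on day 3. Tbx6, of presomitic mesoderm, read 38.8 on day 4 and 21.8 on day 3, and Msgn1 was below background on both arrays. Of 27 blood and endothelium genes only Kdr was past 2-fold (median -0.01). Tal1, the regulator of blood formation, was below background on both arrays (7.52 on day 4, 23.2 on day 3), as were Cdh5 and Hbb-bh1, and Etv2, which acts upstream of Tal1, read 123 on day 4 and 116 on day 3 (0.06). Of 23 cardiac and lateral mesoderm genes 1 was past 2-fold, Gata6, with 11 above background on day 4 against 10 on day 3 and a median of 0.16. Isl1, a homeobox gene of cardiac progenitors, read 166 on day 4 and 75.1 on day 3 (0.79). Of 33 Hox genes 0 were, near the share over all genes, with 7 above background on each array.

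Endoderm genes were also higher on day 4, with 9 of 24 definitive endoderm genes at least 2-fold higher, 0 lower and a median of 0.60. Sox17, the HMG factor of definitive endoderm, read 690 on day 4 and 185 on day 3 (1.65) and 3875 on induced day 5. Gata6, a zinc finger factor of endoderm and mesoderm, read 235 on day 4 and 49.8 on day 3 (1.51). Several of these 9 genes also belong to the streak list, Krt8 and Krt19 to the epithelial list, and Sox17 and Gata6 are used by extraembryonic endoderm too. Of 25 extraembryonic endoderm genes, 2 were higher (Gata6 and Pdgfra), 1 was lower (Rhox5) and 21 lay above 0, with a median of 0.28 and a summed intensity of 18908 on day 4 against 15491 on day 3. Its defining genes read 137 on day 4 and 105 on day 3 for Sox7, 253 on day 4 and 197 on day 3 for Dab2, and 55.7 on day 4 and 39.6 on day 3 for Gata4, and Afp was below background on both. The part of such cells in the endoderm values was not tested. Of 14 trophoblast genes only Eomes was past 2-fold, while 11 lay above 0 with a median of 0.17. Cdx2, of trophoblast and posterior embryo, read 41.8 on day 4 and was below background on day 3 (15.9), Tfap2a read 85.7 on day 4 and 43.3 on day 3 (0.54), and the trophoblast markers Elf5, Gata3 and Tpbpa were below background on both arrays.

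Signals of other families differed gene by gene. Of 36 BMP pathway genes, 3 were at least 2-fold higher (Cer1, Fst and the ligand gene Bmp2) and 1 lower (Id2), with 27 above 0 and a median of 0.26. Bmp4, the ligand that drives posterior streak and mesoderm, read 350 on day 4 and 179 on day 3 (0.81), short of 2-fold. Id2, a helix-loop-helix inhibitor and BMP target, read 841 on day 4 and 1747 on day 3 (-1.01), while its relative Id3 read 1202 on day 4 and 701 on day 3 (0.74). Id2 and Id3 thus pointed in opposite directions, within a list of which most genes lay above 0.

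Fibroblast growth factor (FGF) ligands pointed both ways. Fgf8, the ligand of the streak, read 974 on day 4 and 203 on day 3 (2.01), and Fgf5, the ligand of the epiblast, 2833 on day 4 and 1236 on day 3 (1.16). Fgf4, the autocrine ligand of ESCs, read 31.6 on day 4 and 333 on day 3, at least 9.08-fold lower. Its difference of -2.23 was the largest downward with 50 added, but with 100 added it came to -1.72, against -1.90 for Dppa2. A second Fgf4 probe set gave -2.06, whereas another read 99.5 on day 4 and 76.2 on day 3 (0.24). Fgf15, an epiblast and neural ligand, read 105 on day 4 and 367 on day 3 (-1.43), and Fgf17, another ligand of the streak, 175 on day 4 and 165 on day 3 (0.07). Among the feedback genes of the pathway Dusp4 was past 2-fold (656 on day 4, 288 on day 3), Dusp6 read 2449 on day 4 and 1817 on day 3 (0.42), and Spry4 108 on day 4 and 203 on day 3 (-0.67), which leaves the list of 35 with a median of 0.03. In the Notch pathway 3 of 27 genes were at least 2-fold higher and 0 lower, while 10 lay above 0 and the median was -0.03. The 3 were Hes1 (1387 on day 4, 544 on day 3), a target that represses transcription, the feedback gene Nrarp (359 on day 4, 133 on day 3) and the ligand-like Dll3 (248 on day 4, 93.5 on day 3), while the receptor gene Notch1 read 176 on day 4 and 184 on day 3. Rbpj, the DNA-binding partner of Notch receptors, read 631 on day 4 and 930 on day 3 (-0.52), and Dtx1 122 on day 4 and 224 on day 3 (-0.67).

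Genes of naive ESCs had the lowest median of the lists and gave 7 of the 82 lower genes. Of 24 measured, these 7 were at least 2-fold lower and 0 higher, 5 lay above 0, and the median was -0.55. Dppa2 (Entrez Gene 73703), a developmental pluripotency gene that binds DNA together with its neighbour Dppa4, read 567 on day 4 and 2388 on day 3 (-1.98), and a second probe set gave -2.12. Dppa4 read 877 on day 4 and 2360 on day 3 (-1.38). Zfp42, which encodes the ESC zinc finger protein Rex1, read 645 on day 4 and 1609 on day 3 (-1.26). All of these were still far above background on day 4. Nr0b1, the nuclear receptor Dax1, was closer to it, with 39.7 on day 4 and 240 on day 3 (-1.69).

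Other naive genes lay short of 2-fold. Esrrb, an orphan receptor of naive cells, read 62.0 on day 4 and 120 on day 3 (-0.60), Klf2 123 on day 4 and 235 on day 3 (-0.72), and Dppa3 46.3 on day 4 and 65.1 on day 3 (-0.26). Klf5 ran against the list, with 1277 on day 4 and 922 on day 3 (0.45). Naive genes thus ranged from differences past 2-fold in Dppa2, Dppa4 and Zfp42 to small ones in Dppa3 and a positive one in Klf5.

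**Figure D4:**
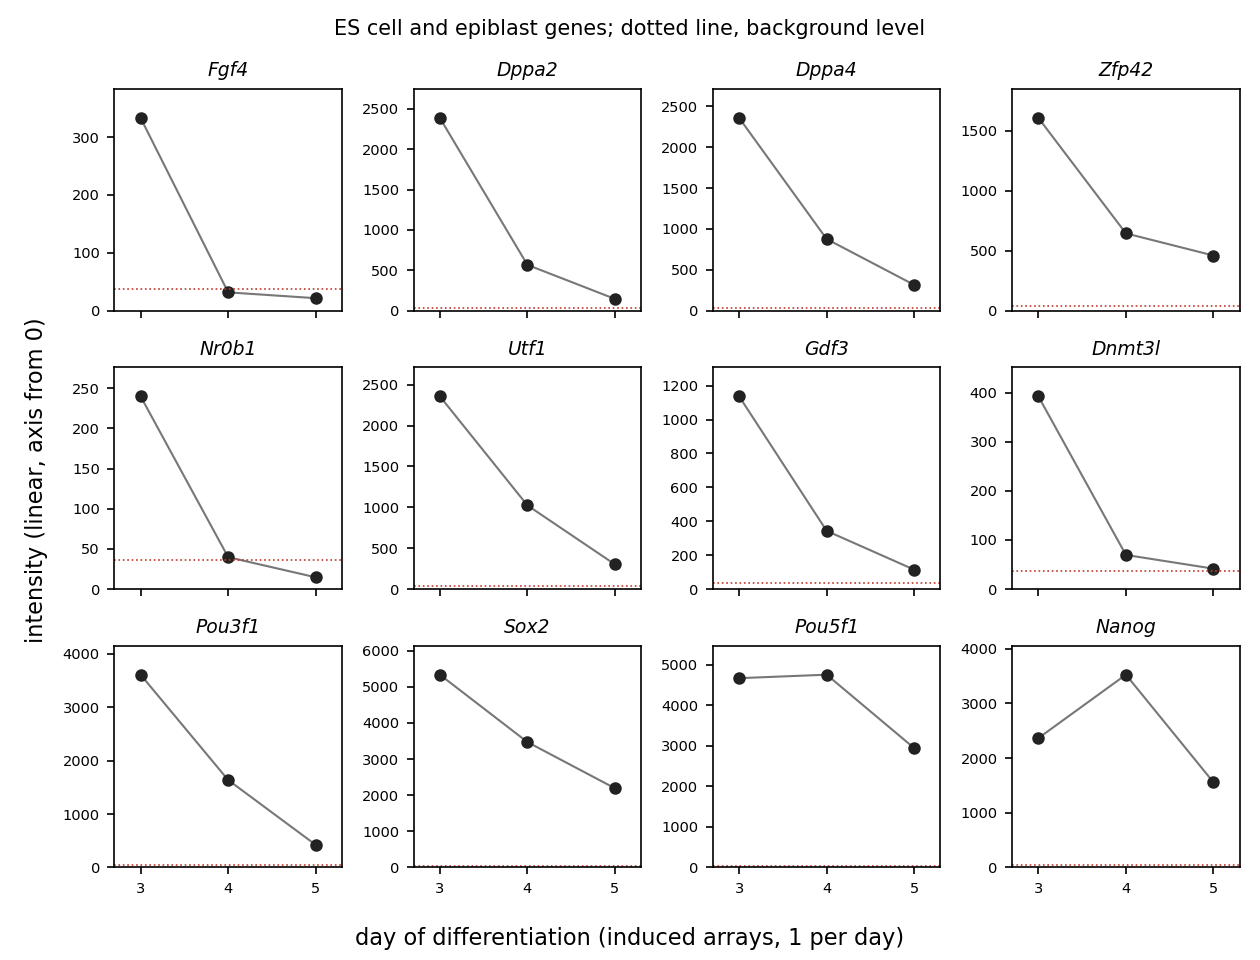
Intensity (linear axis from 0) against day of differentiation for 12 genes of ESCs and epiblast on the induced arrays, 1 array per day, with the background level of 36.7 dotted. From Fgf4 to Sox2 each day is lower than the day before, whereas Pou5f1 is level between days 3 and 4 and Nanog is highest on day 4, at 3523.

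The factors shared by ESCs and epiblast were nearer to their day 3 level. Of 14 core pluripotency genes 3 were at least 2-fold lower (Gdf3, Utf1 and Foxd3) and 0 higher, with a median of -0.16. In the order of days 3, 4 and 5, Pou5f1, encoding Oct4, read 4665, 4751 and 2940. Nanog read 2363, 3523 and 1555, so the homeobox factor was higher on day 4 than on either other day. Sox2 read 5335, 3470 and 2190, lower each day. Utf1, a chromatin factor of pluripotent cells, read 1024 on day 4 and 2359 on day 3 (-1.17). The 3 central factors therefore did not run together between these arrays, with differences of 0.57 for Nanog, 0.03 for Pou5f1 and -0.61 for Sox2.

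Epiblast genes were split as well. Of 18 primitive ectoderm genes, Fgf5 was at least 2-fold higher, and Dnmt3a, Pou3f1 and Fgf15 at least 2-fold lower (median 0.04). Pou3f1, the POU factor Oct6 of epiblast and early neural cells, read 1637 on day 4 and 3610 on day 3 (-1.12). Otx2 (0.23), Zic5 (0.45) and the epiblast claudin gene Cldn6 (0.42) lay above 0. Sox3, which marks epiblast and neural progenitors, read 285 on day 4 and 416 on day 3 (-0.48). Of 28 neuroectoderm genes 13 lay above 0 (median -0.01), and 0 were past 2-fold higher and 2 lower, Tubb3 with 28.8 on day 4 and 139 on day 3 and Neurod1 with 24.6 on day 4 and 122 on day 3. The neural markers Sox1 and Pax6 were below background on day 4 and at 57.0 and 40.6 on day 3, whereas Nes, the nestin gene of neural progenitors, read 437 on day 4 and 279 on day 3 (0.57).

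DNA methylation and germline genes held further differences downward. Dnmt3l, the cofactor of the de novo DNA methyltransferases, read 69.5 on day 4 and 393 on day 3 (-1.89). Dnmt3a read 625 on day 4 and 1390 on day 3 (-1.09), but 2 of its 4 other probe sets above background pointed the other way. Dnmt3b was nearly level at 10634 on day 4 and 11392 on day 3 (-0.10). Of 19 germ cell genes 2 were lower and 0 higher. Mael, a gene of the piRNA pathway, read 137 on day 4 and 552 on day 3 (-1.69), and Dazl, an RNA-binding protein of germ cells, 36.8 on day 4 and 163 on day 3 (-1.29). Outside the lists of pluripotency, Tcf15, a bHLH gene of primed ESCs and later of somites, read 244 on day 4 and 1173 on day 3 (-2.05), and Rpl39l, a ribosomal protein gene with near-identical relatives whose reading is therefore uncertain, 76.8 on day 4 and 504 on day 3 (-2.13).

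The epithelial list, which the miR-200 family is known to favour, showed 3 of 45 genes at least 2-fold higher, 0 lower and a median of 0.04. All 3 belong to keratin filaments and desmosomes. Krt19 read 1300 on day 4 and 245 on day 3 (2.19), Krt8 3330 on day 4 and 1068 on day 3 (1.60), and the desmosome gene Dsp 2105 on day 4 and 739 on day 3 (1.45). Cdh1, the E-cadherin gene, read 8596 on day 4 and 7725 on day 3 (0.15), with 7720 on induced day 5. Epcam, another epithelial adhesion gene, read 3208 on day 4 and 3178 on day 3 (0.01). The desmosomal cadherin genes Dsc2 (169 on day 4, 76.8 on day 3) and Dsg2 (1730 on day 4, 1136 on day 3) lay in between, at 0.79 and 0.59.

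Mesenchymal genes had 4 of 39 members at least 2-fold higher and 0 lower, with 30 above 0 and a median of 0.21. Cdh11, a mesenchymal cadherin, read 606 on day 4 and 77.8 on day 3 (2.36), and Cdh2, the N-cadherin gene, 2608 on day 4 and 894 on day 3 (1.49). Fn1, encoding fibronectin, read 2526 on day 4 and 1228 on day 3 (1.01), just past 2-fold, and Tgfb1 261 on day 4 and 79.0 on day 3 (1.27). N-cadherin was thus higher on an array on which E-cadherin was level. Snai1, the repressor Snail of Cdh1, read 72.3 on day 4 and 18.6 on day 3, at least 1.97-fold higher, whereas Zeb1 read 196 on day 4 and 132 on day 3 (0.43) and Zeb2 was below background on both arrays. Vim, encoding vimentin, read 5389 on day 4 and 3927 on day 3 (0.45).

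Feeder fibroblasts share several of these genes. Of 19 feeder genes 0 were past 2-fold, near the share over all genes, while 14 of the 19 lay above 0 with a median of 0.11. Their summed intensity was 4595 on day 4 against 2874 on day 3, of which Tagln gave 3236 on day 4 and 1734 on day 3. Acta2, of smooth muscle and activated fibroblasts, read 520 on day 4 and 314 on day 3 (0.65), Pdgfrb 103 on day 4 and 54.8 on day 3 (0.54), and Col1a2 103 on day 4 and 58.1 on day 3 (0.50). Among the defining fibroblast genes, Col1a1 and Postn were below background on both arrays, Thy1 read 24.5 on day 4 and 56.5 on day 3, and Dcn 52.0 on day 4 and 61.6 on day 3. The part of feeder cells in the mesenchymal values was not tested.

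Genes known from the literature as miR-200 family targets had no shared direction. Of 54 measured, 3 were at least 2-fold higher (Cdh11, Kdr and Fn1), 3 lower (Tubb3, Dnmt3a and Ntrk2), and the median was 0.07, near the 0.02 of all genes. Flt1, a VEGF receptor gene, read 185 on day 4 and 72.0 on day 3 (0.94), and the polycomb gene Bmi1 233 on day 4 and 203 on day 3 (0.16). Nrp1, the neuropilin gene, read 64.1 on day 4 and 18.8 on day 3, at least 1.75-fold higher, and then 1515 on induced day 5.

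The remaining lists held few genes past 2-fold. Of 32 hypoxia and glycolysis genes 26 lay above 0 (median 0.26), and Ndrg1, a stress-responsive gene, was past 2-fold at 564 on day 4 and 128 on day 3 (1.79), with Vegfa at 226 on day 4 and 106 on day 3 (0.82). Of 47 matrix and integrin genes 2 were higher, Hspg2, encoding the basement membrane protein perlecan (655 on day 4, 265 on day 3), and Fn1. A second Hspg2 probe set read 84.8 on day 4 and 93.9 on day 3. Of 48 guidance genes 2 were higher, the ephrin receptor genes Epha1 (179 on day 4, 50.4 on day 3) and Epha7 (443 on day 4, 190 on day 3). Among 20 imprinted genes Peg3 was just past 2-fold at 2703 on day 4 and 1324 on day 3, Igf2 stood at 0.87 and Cdkn1c at -0.88, and among 23 genes of the ATF4 stress response Vldlr alone was past 2-fold (1.44). Of 33 cell cycle genes and 23 p53 response genes 0 were past 2-fold, with medians of -0.04 and 0.00. Both counts are near the share over all genes, 0.654% higher and 0.451% lower.

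The threshold itself divides neighbours. On the higher side Gbp3 (1.003) and Crot (1.002) lay just inside 2-fold and Phlda1 (0.998) and Mfge8 (0.994) just outside, and on the lower side Id2 (-1.012) and Mylpf (-1.007) lay just inside and Foxp1 and Scrn1 (both -0.990) just outside. Of the higher genes 21 were below background on day 3, and of the lower genes 9 were below background on day 4, so the size of these differences depends on the 50 added to each value.

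Other probe sets of the same genes were compared, which bears on the array and not on the culture, since they share the RNA. For 57 of the 119 higher genes there were 85 other probe sets above background on either array, of which 81 had the same sign and 28 were also past 2-fold. For 26 of the 82 lower genes there were 42, of which 36 had the same sign and 11 were past 2-fold. Some of these probe sets were above background only on the day on which the gene was high, such as that of Dkk1 (37.6 on day 4, 14.5 on day 3). Those could only share the sign, so the counts of shared signs are no independent check. The share among genes short of 2-fold is not given here. The other Eomes probe set read 2507 on day 4 and 468 on day 3 (2.30), and the other Lhx1 probe set 181 on day 4 and 5.88 on day 3 (2.05). Those of Sox17 (0.72) and Dkk1 (0.44) had the same sign below 2-fold, and that of Gdf3 gave -0.15. Among genes with several probe sets above background on either array, those of a gene differed with an SD of 0.23. The differences of all genes had an SD of 0.30, but that set includes genes at background, so the SDs are not like for like.

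**Figure D5:**
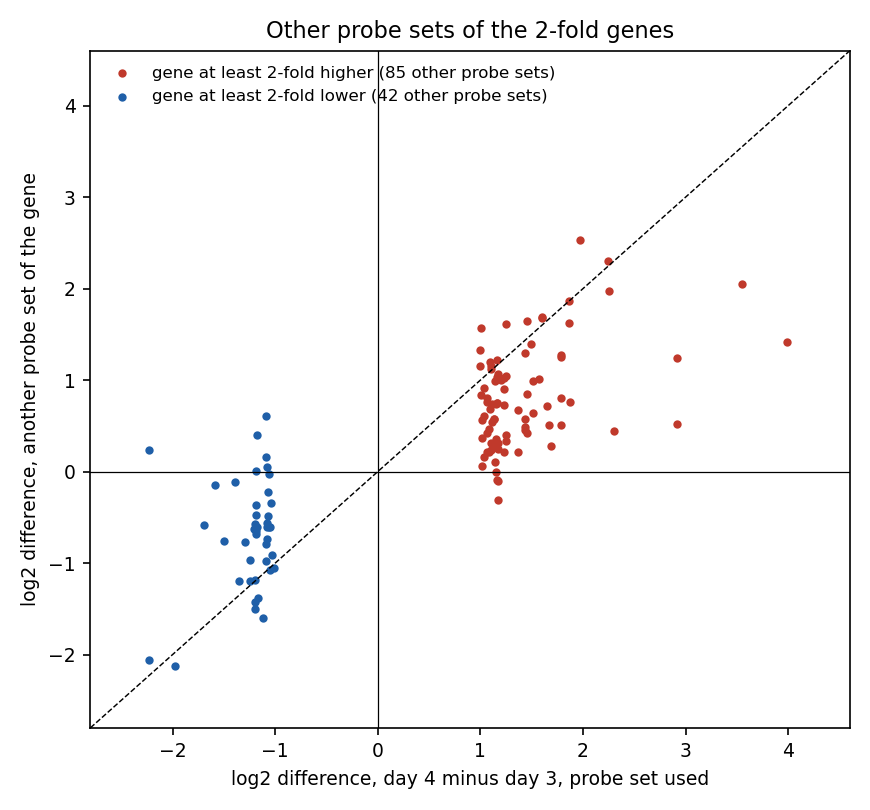
For genes at least 2-fold higher (red) or lower (blue) on induced day 4, the log2 difference of the probe set used (horizontal) and of each other probe set of the gene above background on either array (vertical), with equality dashed. Of the 85 red points 81 and of the 42 blue points 36 share the sign of the probe set used, and most lie nearer to 0 than it does. Some points were above background only on the day on which the gene was high, and those could only share the sign.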

How the data were processed

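Total RNA was hybridised to Affymetrix MOE430 2.0 arrays. The deposited values are intensities on a linear scale, which the authors normalized and modelled per probe set with dChip, whose version is not given in the sources used here. The table held 45037 probe sets, of which 34945 had a single gene symbol, 932 several and 9160 none, and probe sets with several or none were left out of gene counts. From the deposited intensities, log2(intensity + 50) on induced day 4 minus induced day 3 was computed in Python 3.11.15 with pandas 2.3.3 and numpy 2.4.6, and counted at 2-fold. The counting was checked by putting known changes well past 2-fold into bright genes of the induced day 3 array. That check does not cover differences near 2-fold or genes near background. The 36.7 background is the 95th percentile of 78 receptor genes. Arrays have no read depth, and precision is limited by their number. With 1 array a group there was no test.

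Members and the 34 lists were chosen with earlier results of these data known, and 3 further lists after their values were seen. Named genes were the 20 largest differences each way, up to 6 of each list, 24 genes the study names, marker genes and Hprt. Chosen after their values were seen were Tdgf1, Lefty1, Lefty2, Wnt3, Wnt3a, Lef1, Ctnnb1, Tbx6, Msgn1, Id3, Dusp6, Spry4, Notch1, Esrrb, Klf2, Dppa3, Klf5, Sox3, Dnmt3b, Epcam, Vim, Flt1, Bmi1, Nrp1, Fgf17, Dsg2, the genes beside the threshold and, in the closing section, those outside the largest differences. RefSeq promoters matched 91 of the 119 higher and 62 of the 82 lower genes. Alternatives were the pseudocount, probe set, filter, normalization and threshold.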

Additional observations from a re-analysis of the deposited data

How the results depend on the processing

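No paired analysis was possible because every group had 1 array and the result comes from no test. With a pseudocount of 16 there were 240 genes at least 2-fold higher and 159 lower, and with 100 there were 75 and 40. The mean over all probe sets of a gene gave 72 higher and 60 lower. A 1.5-fold threshold gave 543 higher and 388 lower, and a 3-fold threshold 34 and 12, so that 73.9% of genes past it were higher, against 59.2% at 2-fold. Under the other settings run (probe set chosen on the 2 arrays, filter on background, quantile normalization, median centring) the counts lay between 113 and 118 higher and 81 and 85 lower. Of 254 named genes, 0 called at 2-fold turned direction under these settings. A change of pseudocount, the filter and the small centring shift could not turn such a gene. That 0 therefore bears only on the probe set settings and quantile normalization. By more than the spread between probe sets, 83 named genes moved with a pseudocount of 16, 61 with 100 and 86 with the mean over probe sets. Centring shifted all differences by -0.02. No replicate measures the error of any value, and genes near the background carry only bounds.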

Other observations

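Genes of the antioxidant programme run by the transcription factor NRF2 were lower on induced day 4, a list put together after its leading members had been seen among the 2-fold genes. Of 23 measured, 4 were at least 2-fold lower and 0 higher, 4 lay above 0 and the median was -0.36, against 0.02 over all genes. Cbr3, a carbonyl reductase, read 893 on day 4 and 2726 on day 3 (-1.56), and Nqo1, a quinone reductase, 227 on day 4 and 742 on day 3 (-1.52). Abcc4, a transporter of organic anions, read 551 on day 4 and 1591 on day 3 (-1.45), and Gclm, a subunit of the enzyme that starts glutathione synthesis, 992 on day 4 and 2599 on day 3 (-1.35). The last of these was lower again on induced day 5, at 369. The gene of NRF2 itself, Nfe2l2, read 1088 on day 4 and 1498 on day 3 (-0.44), and Txnrd1 (-0.03) and Hmox1 (-0.03) were level, so the difference lay with part of the list.

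Interferon response genes, also listed after their values were seen, had 5 of 27 at least 2-fold higher, 0 lower, 24 above 0 and a median of 0.45. They were 3 guanylate-binding proteins and 2 immunity-related GTPases. Gbp2b read 1210 on day 4 and 209 on day 3 (2.28) and Gbp2 816 on day 4 and 131 on day 3 (2.25), although these genes and Gbp3 are closely related and their readings are uncertain for that reason. Iigp1 read 196 on day 4 and 27.2 on day 3, at least 5.35-fold higher on the probe set used. A second Iigp1 probe set read 77.6 on day 4 and 39.7 on day 3 (0.51), short of 2-fold. The receptor gene Ifnar1 read 468 on day 4 and 371 on day 3 (0.30). Of the 27 genes, 22 were above background on day 4 and 19 on day 3. The induced genes Ifit1 and Mx1, picked after their values were seen, were below it on both arrays.

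Annexins and S100 proteins, calcium-binding proteins of the membrane and cytoskeleton listed in the same way, had 4 of 16 at least 2-fold higher and 0 lower, with a median of 0.33. Anxa2 read 1414 on day 4 and 403 on day 3 (1.69), and its binding partner S100a10 read 4236 on day 4 and 1753 on day 3 (1.25). S100a6 read 554 on day 4 and 135 on day 3 (1.71) and Anxa5 1534 on day 4 and 622 on day 3 (1.24).

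Among the 20 largest differences upward, Adamts9, a secreted metalloprotease gene, read 1517 on day 4 and 158 on day 3 (2.92), and Alox15, a lipoxygenase gene, 472 on day 4 and 49.5 on day 3 (2.39). Among the 20 downward, the neurofilament gene Nefh read 46.5 on day 4 and 312 on day 3 (-1.91), and Wt1, the Wilms tumour zinc finger gene, 27.5 on day 4 and 175 on day 3, at least 4.78-fold lower. Further genes past 2-fold, in none of the lists and picked after their values were seen, included growth factor and hedgehog partners on the higher side. Igfbp3, which binds insulin-like growth factors, read 1939 on day 4 and 497 on day 3 (1.86), Gpc3, a glypican, 1243 on day 4 and 528 on day 3 (1.16), and Gas1, a co-receptor of hedgehog signals, 911 on day 4 and 323 on day 3 (1.37). Hmga2, a chromatin protein of early embryonic cells, read 3193 on day 4 and 1466 on day 3 (1.10). On the lower side the hedgehog receptor gene Ptch1 read 846 on day 4 and 2006 on day 3 (-1.20), so that 2 receptors of hedgehog differed in opposite directions. Epas1, a hypoxia-inducible factor gene, read 324 on day 4 and 930 on day 3 (-1.39), and Tex19.1, a gene of germ cells and ESCs, 81.9 on day 4 and 258 on day 3 (-1.22).

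Of the 9160 probe sets with no symbol, 9 were at least 2-fold higher and 15 lower, and of the 932 with several, 5 were higher and 3 lower.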
